A study of Mus musculus with 2 samples.

Results

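Gli2, Gli3, Smo, Sufu, Kif7 and Spop are the genes by which a cell turns a Hedgehog (HH) signal into transcription, and they were followed here through the cell classes of newborn mouse skin. The members are the rows of the count tables that carry these symbols, 6 of 56694 genes, and each symbol stood on 1 row. The data are single-cell RNA counts of the dorsal epidermis at day 2 after birth, with 1 library per genotype. The control library comes from floxed littermates without Cre, on the C57BL/6N background, which GEO's genotype label calls WT. The Gli2_EKO library comes from K14Cre-tg;Gli2 fl/fl mice, in which the K14 promoter drives Cre in keratinocytes and not in the cells of the dermis. How many mice each library pools was not given in the sources used here, and sex was not selected for.

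HH ligands bind the receptor Ptch1, which otherwise holds the membrane protein Smoothened (Smo) in check. Free of Ptch1, Smo acts in the primary cilium to let the transcription factors Gli2 and Gli3 leave their inhibitor Sufu. Kif7, a kinesin of the cilium tip, organises this step, and Spop, an adaptor of a Cul3 ubiquitin ligase, marks full-length Gli2 and Gli3 for degradation. Gli2 is mainly known as an activator and Gli3 mainly as a repressor after it is trimmed by the proteasome, a step that transcript counts do not show. In skin, HH signalling drives the down-growth of the hair follicle (HF), and it passes between the epithelium and the dermal papilla beneath it.

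The control library held 71021773 unique molecular identifiers (UMIs, counted molecules) in 6326 barcodes and the Gli2_EKO library 48866478 in 4296, and no barcode was shared. After filters and removal of likely doublets, 4456 control and 3093 Gli2_EKO cells were kept, with a median of 11806 and 11909 UMIs, of which 3324 and 2302 were keratinocytes. The keratinocytes fell into 16 clusters, clustered without the members or other HH pathway genes, and 15 of these could be placed by marker genes in 12 classes. The remaining cluster, with 52 control and 24 Gli2_EKO cells, scored alike for matrix and Foxq1 lineage markers and stays unnamed. Its leading gene was Rnf180, and its median depth of 4766 and 4027 UMIs was low against the other classes. Interfollicular epidermis (IFE) basal-like cells made up 11.97% of control and 25.7% of Gli2_EKO keratinocytes, and matrix/progenitor-like cells 13.3% and 7.65%. Although the label of both samples is epidermis, 1923 cells carried markers of other types, mostly fibroblasts and dermal papilla.

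Levels are given in CPM, the usual depth-scaled unit: within a library, the cells of each class were pooled and a gene's UMIs set against all UMIs of the pool. The assay counts each transcript once at its polyA end, so no scaling by length was made, but the efficiency of counting can differ between genes and levels are compared between cells, not between genes. A log2 ratio sets Gli2_EKO over control. Values in parentheses are exact 95% intervals, which cover counting error only, and with 1 library per genotype no difference between the genotypes has a replicate check or a test.

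The members lie on different chromosomes of GRCm39. Gli2 (ENSMUSG00000048402.15) spans chromosome 1 from 118761858 to 118982598 on the minus strand, Gli3 (ENSMUSG00000021318.16) chromosome 13 from 15637809 to 15904611 on the plus strand, and Smo (ENSMUSG00000001761.8) chromosome 6 from 29735407 to 29762532 on the plus strand. Sufu (ENSMUSG00000025231.18) spans chromosome 19 from 46385324 to 46477243 on the plus strand, Kif7 (ENSMUSG00000050382.15) chromosome 7 from 79347830 to 79365618 on the minus strand, and Spop (ENSMUSG00000057522.16) chromosome 11 from 95296831 to 95384236 on the plus strand. The canonical Gli2 transcript has 14 exons, of which the last, with the coding end and the 3' UTR, measures 4050 bases and lies next to the site where the assay reads. The exons removed by Cre are not stated in the study's methods. A transcript that lost inner exons would still be counted, so Gli2 UMIs in Gli2_EKO keratinocytes do not check the genotype. On the same strand, the pseudogene Gm13717 overlaps Smo, with 403 UMIs of its own in the kept cells, and Gm48343 overlaps Gli3, with 1 UMI. Reads of Smo and of Gm13717 could be split between both by the counting. The core Gli binding motif GACCACCC, searched on both strands, was in 265 of 32851 RefSeq promoter windows of GRCm38.p6 (0.807%) and in none of the windows of the 6 members. The window of the HH target Ptch1 lacked it too, so its absence from a window does not mark a gene as no target.

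Over all keratinocytes, Gli2 stood at 83.6 CPM (81.0 to 86.3) in control and 85.1 CPM (82.0 to 88.3) in Gli2_EKO cells, a log2 ratio of 0.02 (−0.05 to 0.10). Gli3 stood at 164 CPM (161 to 168) and 88.8 CPM (85.7 to 92.1), a log2 ratio of −0.89 (−0.95 to −0.83). The counts of the factor that Cre targets were thus alike in both libraries, and those of its relative were lower in Gli2_EKO. Smo was measured at 105 and 88.4 CPM, with a log2 ratio of −0.24 (−0.31 to −0.18), and Spop at 153 and 129 CPM, with −0.24 (−0.30 to −0.19). Sufu was measured at 22.2 and 15.8 CPM, with a log2 ratio of −0.49 (−0.64 to −0.34), and Kif7 at 7.46 and 5.37 CPM, with −0.47 (−0.74 to −0.21). The intervals of 5 of the 6 members lay below 0, as did those of 41.2% of the 15620 genes with at least 50 UMIs. The median log2 ratio was −0.36 over the members and −0.14 over all genes tested. Gli3 alone among the members was more than 1.5-fold lower, as were 9.8% of all genes, and none was more than 1.5-fold higher, as were 4.22%. When the Gli2_EKO classes were weighted to the share of UMIs they have in the control library, Gli3 gave −0.36 and Gli2 0.09, Smo −0.10, Spop −0.15, Sufu −0.26 and Kif7 −0.18; no member then passed 1.5-fold, as did 5.41% of genes downwards and 3.27% upwards.

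Gli2 was present in nearly every follicle class of the control library, and its level followed the position of the cells. It was highest in contractile-like cells, a follicle class with the smooth muscle genes Tagln and Acta2, at 191 CPM (172 to 211). It stood at 139 CPM (125 to 155) in ORS/SC-like cells, the outer root sheath (ORS) class scoring highest for stem cell markers such as Lhx2 and Sox9. The other ORS-like cells had 121 CPM (113 to 128) and inner root sheath (IRS)-like cells 112 CPM (101 to 123). The intervals of these last 3 overlap from neighbour to neighbour, whereas the contractile-like class stands apart from all 3. Upper follicle-like cells had 83.6 CPM (76.5 to 91.2), matrix/progenitor-like cells, which hold the Shh source, 71.6 CPM (65.6 to 78.1), and IFE basal-like cells 60.9 CPM (55.0 to 67.3). Companion layer-like cells followed at 53.3 CPM, Foxq1 lineage-like cells at 32.8 CPM and hair shaft-like cells at 28.5 CPM. The lowest levels were those of IFE suprabasal-like cells, the cornifying layers, with 18.5 CPM (14.9 to 22.6), and of sebocyte-like cells with 18.1 CPM (10.7 to 28.7). The named classes thus spanned a range of 10.5-fold. After each cell was thinned to 2000 UMIs, a Gli2 UMI was found in 32.7% (26.3 to 39.6) of the 205 contractile-like control cells and in 16.4% (15.2 to 17.7) of all control keratinocytes. In immune-like and endothelial-like cells, which serve as background, it was found in 1 of 119, or 0.840% (0.0213 to 4.59). Median depths before thinning were 9833, 12427 and 9510 UMIs in that order.

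**Figure D1:**
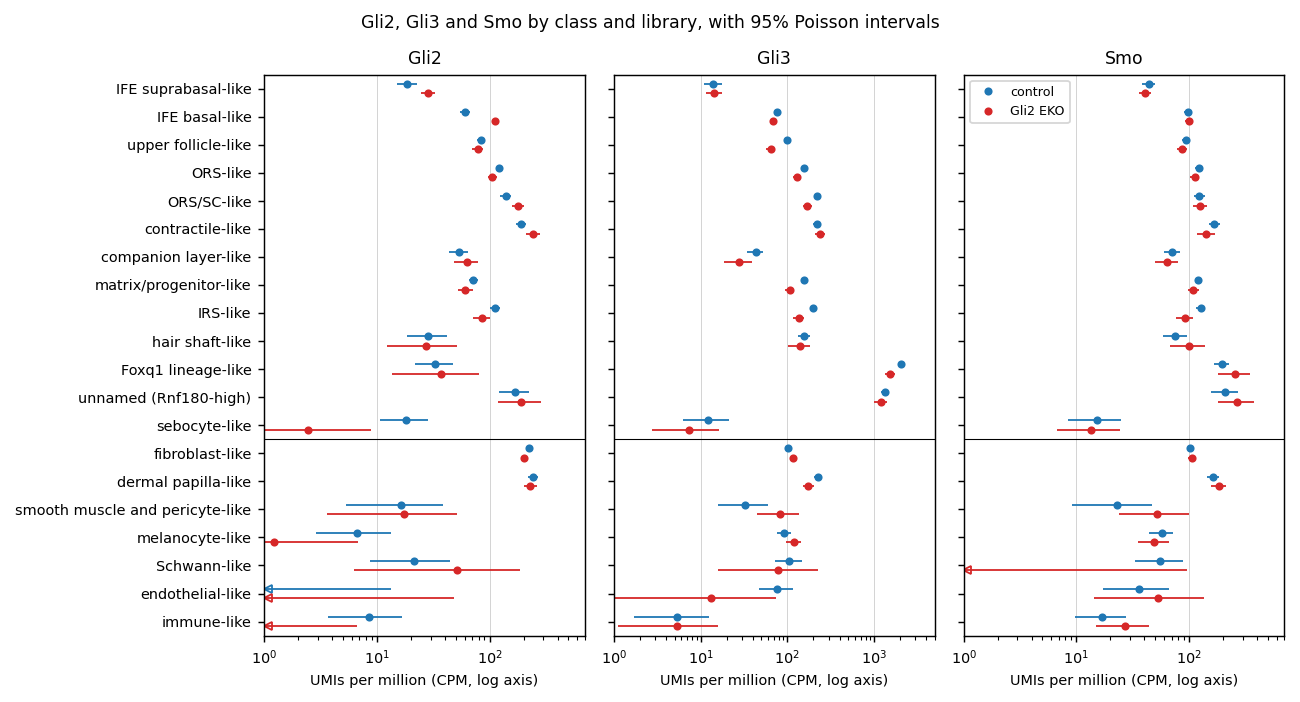
Level of Gli2, Gli3 and Smo in CPM on a log axis in each class of the control (blue) and Gli2_EKO (red) library, with keratinocytes above the line and other cells below it. Points are levels of the pooled cells, bars are 95% Poisson intervals, and open triangles mark classes with no UMI. Gli3 reaches 2020.1 CPM in the Foxq1 lineage-like class, while no class exceeds 243 CPM for Gli2 or 265 CPM for Smo.

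Between the libraries, Gli2 differed in the epidermis between the follicles. IFE basal-like cells held 382 Gli2 UMIs in control and 967 in Gli2_EKO, or 60.9 and 111 CPM, a log2 ratio of 0.87 (0.70 to 1.04), and moved from below the matrix and upper follicle classes to the level of ORS-like cells. Of the genes tested in IFE basal-like cells, 13.9% had an interval above 0. The class consists of 3 clusters, and Gli2 was higher in the Gli2_EKO cells of all 3. In the cluster led by Sox6 it stood at 66.7 and 129 CPM, in the cluster with the stress genes Atf3 and Fosl1 at 70.9 and 129 CPM, and in dividing cells at 46.6 and 79.6 CPM. The share of IFE basal-like cells with a Gli2 UMI after thinning was 10.3% (7.51 to 13.7) in control and 19.0% (15.9 to 22.4) in Gli2_EKO, with median depths of 14767 and 13778.5 UMIs. Summed fibroblast markers (6 genes without Dcn) stood at 112 CPM in control and 89.1 CPM in Gli2_EKO cells of this class. Their part in the Gli2 values was not tested. IFE suprabasal-like cells, the progeny of the basal layer, had 18.5 and 28.4 CPM, a log2 ratio of 0.62 (0.26 to 1.00). Fibroblast markers stood at 99.5 and 110.0 CPM there, and their part in this difference was not tested.

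In the follicle, Gli2 differed less between the libraries, and not in 1 direction. Contractile-like cells had 191 and 243 CPM, a log2 ratio of 0.35 (0.09 to 0.60), and ORS/SC-like cells 139 and 177 CPM, also 0.35 (0.11 to 0.59). IRS-like cells had 112 and 85.2 CPM, with −0.39 (−0.69 to −0.10), and ORS-like cells 121 and 106 CPM, with −0.19 (−0.35 to −0.03). Fibroblast markers stood at 194 and 145 CPM in contractile-like, 143 and 92.1 CPM in ORS/SC-like, 124 and 129 CPM in IRS-like and 122 and 106 CPM in ORS-like cells, and their part in these values was not tested. The IRS value did not hold when each cell was weighted equally, which gave 0.044, and the ORS/SC value came to 0.02 under a coarser clustering that drew 591 control cells into that class. For matrix/progenitor-like (−0.23), upper follicle-like (−0.10), companion layer-like (0.23), hair shaft-like (−0.07) and Foxq1 lineage-like cells (0.18) the intervals include 0. Sebocyte-like cells, the lipid-producing cells of the sebaceous gland, held 18 Gli2 UMIs among 44 control cells and 2 among 26 Gli2_EKO cells, or 18.1 and 2.46 CPM, a log2 ratio of −2.88 (−6.03 to −0.82). A single control cell held 33.3% of the Gli2 UMIs of the control sebocyte-like class. Fibroblast markers moved the same way there, with 416 and 94.9 CPM, and their part in the difference was not tested. In all, the interval lay above 0 in 4 and below 0 in 3 of the 12 keratinocyte classes. The share of all genes with an interval below 0 was 20.5% in IRS-like, 17% in ORS-like and 22.7% in sebocyte-like cells. These shares cover genes with at least 50 UMIs in the class. Gli2, with 20 UMIs in sebocyte-like cells, was not among the genes tested there. The share of all genes with an interval above 0 was 13.9% in IFE basal-like, 10.7% in IFE suprabasal-like, 9.84% in ORS/SC-like and 9.7% in contractile-like cells, and in the other classes 4.74% (Foxq1 lineage), 7.11% (hair shaft), 8.27% (companion layer), 10.8% (ORS), 11.3% (IRS), 11.4% (matrix/progenitor), 12.8% (sebocyte) and 14% (upper follicle).

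Gli3 had the most uneven pattern of the 6 genes. In Foxq1 lineage-like cells, a small follicle class with Foxq1, Krt23, Gpnmb and Kitl, it reached 2020.1 CPM in control and 1539.6 CPM in Gli2_EKO cells. The remaining keratinocytes had 129 and 81.7 CPM, so that the class was 15.6-fold higher in control and 18.8-fold higher in Gli2_EKO. By fold over the other keratinocytes, Gli3 ranked as gene 10 of 14201 in control and as gene 10 of 13129 in Gli2_EKO, although it had no part in the clustering. The class made up 1.76% of all keratinocytes of both libraries and held 18.8% (18.0 to 19.5) of their Gli3 UMIs, against 0.509% of their Gli2 UMIs. The unnamed cluster was next, with 1339 CPM (1203 to 1486) in control and 1189 CPM (999 to 1404) in Gli2_EKO. Hair shaft-like cells, split from the same cluster as these, had 157 and 138 CPM, within the range of the other follicle classes.

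In single cells, the high level was a property of nearly all cells of the Foxq1 lineage-like class. Every one of the 74 control cells and 88.0% of the 25 Gli2_EKO cells held a Gli3 UMI, and after thinning to 2000 UMIs 90.5% (81.5 to 96.1) and 84.0% (63.9 to 95.5) still did. The quartiles of the per-cell level were 846, 1749 and 2916 CPM in control and 421, 1289 and 2662 CPM in Gli2_EKO cells. No control cell held more than 3.02% of the class's Gli3 UMIs, but 1 of the Gli2_EKO cells held 14.9%, and without the cell with the most Gli3 UMIs in each library the class had 1990 and 1333 CPM. In IRS-like cells the spread was wide: the upper quartile was 416 CPM in control and 262 CPM in Gli2_EKO, and the lower quartile 0 in both. Shares of background cells with a Gli3 UMI after thinning were 5.04% (1.87 to 10.7) in control and 0 of 51 in Gli2_EKO, which allows a share of up to 5.88% at a limit of 3 counts. Of these control cells, endothelial-like cells held Gli3 in 20.8% (7.13 to 42.2) and immune-like cells in 1.05% (0.0266 to 5.73), so the latter are the lower background for Gli3.

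**Figure D2:**
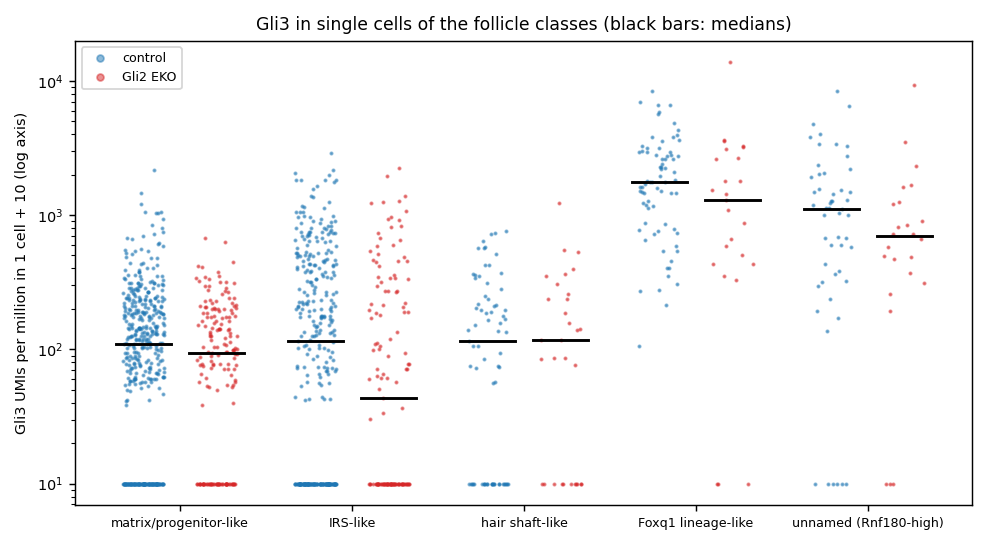
Gli3 level in each cell of 5 follicle classes, in CPM with 10 added and on a log axis, for control (blue) and Gli2_EKO (red) cells; black bars are medians and cells without a Gli3 UMI lie at 10. The medians of the Foxq1 lineage-like cells, 1749 and 1289 CPM, lie far above those of matrix/progenitor-like cells, 100.4 and 84.7 CPM.

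Among the other classes of the control library, Gli3 was highest in contractile-like (220 CPM, 200 to 242), ORS/SC-like (219 CPM, 201 to 239) and IRS-like cells (197 CPM, 183 to 212), which overlap. Hair shaft-like, matrix/progenitor-like and ORS-like cells formed a second group, at 157, 156 and 155 CPM. Upper follicle-like cells had 98.5 CPM, IFE basal-like cells 76.7 CPM and companion layer-like cells 43.0 CPM. IFE suprabasal-like and sebocyte-like cells were again lowest, at 14.0 CPM (10.9 to 17.6) and 12.1 CPM (6.25 to 21.1). The classes low in Gli2 at the end of differentiation were therefore low in Gli3 too, except for the hair shaft-like and Foxq1 lineage-like classes. Gli3 was high in the Foxq1 lineage-like class alone. In hair shaft-like cells its 157 CPM lay near the 164 CPM of the other control keratinocytes.

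Between the libraries, Gli3 was lower in the Gli2_EKO cells of 10 of 12 keratinocyte classes, with the interval below 0 in 7 and above 0 in none. Upper follicle-like cells had 98.5 and 64.8 CPM (−0.60, −0.81 to −0.39), matrix/progenitor-like cells 156 and 106 CPM (−0.55, −0.74 to −0.37) and IRS-like cells 197 and 135 CPM (−0.55, −0.79 to −0.32). The other 4 were companion layer-like cells with −0.64 (−1.28 to −0.03), Foxq1 lineage-like cells with −0.39 (−0.59 to −0.20), ORS/SC-like cells with −0.36 (−0.59 to −0.14) and ORS-like cells with −0.28 (−0.43 to −0.14). Among these 7 classes the share of all genes with an interval below 0 was 6.49% in Foxq1 lineage-like, 11% in ORS/SC-like, 11.7% in companion layer-like, 17% in ORS-like, 19.2% in matrix/progenitor-like, 20.5% in IRS-like and 23.7% in upper follicle-like cells. In the other 5 it was 6.36% (hair shaft), 10.6% (contractile), 18.1% (IFE basal), 19.5% (IFE suprabasal) and 22.7% (sebocyte). Fibroblast markers in companion layer-like cells stood at 453 and 90.0 CPM, and the 6 melanocyte markers at 56.8 and 15.97 CPM in upper follicle-like, 57.1 and 30.4 CPM in IRS-like, 89.8 and 47.4 CPM in ORS/SC-like and 48.8 and 33.2 CPM in matrix/progenitor-like cells. In ORS-like cells the melanocyte markers lay the other way, at 29.8 and 46.3 CPM. Fibroblast markers were also lower in Gli2_EKO in ORS/SC-like cells (143 and 92.1 CPM) and upper follicle-like cells (123 and 86.7 CPM), and higher in Foxq1 lineage-like cells (124 and 185 CPM). The part of either list in the Gli3 values of these classes was not tested. Contractile-like cells, with 220 and 238 CPM, and IFE suprabasal-like cells, with 14.0 and 14.2 CPM, had ratios of 0.11 (−0.14 to 0.36) and 0.03 (−0.43 to 0.49). A single cell held 35.1% of the Gli3 UMIs of the Gli2_EKO IFE suprabasal-like class, and without the cell with the most Gli3 UMIs in each library the class had 11.9 and 9.28 CPM, with −0.35 (−0.89 to 0.18). In IFE basal-like cells, where Gli2 was higher, Gli3 was measured at 76.7 and 68.2 CPM, with −0.17 (−0.35 to 0.01). Class sizes differed between the libraries too: Foxq1 lineage-like cells were 2.23% (1.75 to 2.79) of control and 1.09% (0.704 to 1.599) of Gli2_EKO keratinocytes. Without them and the unnamed cluster, the log2 ratio of Gli3 over keratinocytes was −0.65 (−0.72 to −0.58), against −0.89 with them. Leaving them out also removes their own lower Gli3 level in Gli2_EKO. The part of class sizes in the difference was not tested.

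The balance of both factors can be read from the share of Gli3 among the UMIs of Gli2 and Gli3, which does not depend on how the library total is set. It was 66.3% (65.4 to 67.1) in control and 51.1% (49.8 to 52.4) in Gli2_EKO keratinocytes. By class, it ran in control cells from 40.0% in sebocyte-like, 43.0% in IFE suprabasal-like and 44.7% in companion layer-like cells to 68.5% in matrix/progenitor-like, 84.6% in hair shaft-like and 98.4% (97.7 to 98.9) in Foxq1 lineage-like cells. In IFE basal-like cells it was 55.7% (52.3 to 59.1) in control and 38.0% (35.6 to 40.5) in Gli2_EKO, in ORS/SC-like cells 61.1% (57.8 to 64.4) and 49.0% (44.6 to 53.5), and in upper follicle-like cells 54.1% (51.1 to 57.0) and 45.3% (41.3 to 49.4). These were the 3 keratinocyte classes in which the intervals of the libraries did not overlap. In ORS-like cells the shares were 56.3% and 54.7%, in IRS-like cells 63.8% and 61.2% and in Foxq1 lineage-like cells 98.4% and 97.6%, all with overlapping intervals.

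**Figure D3:**
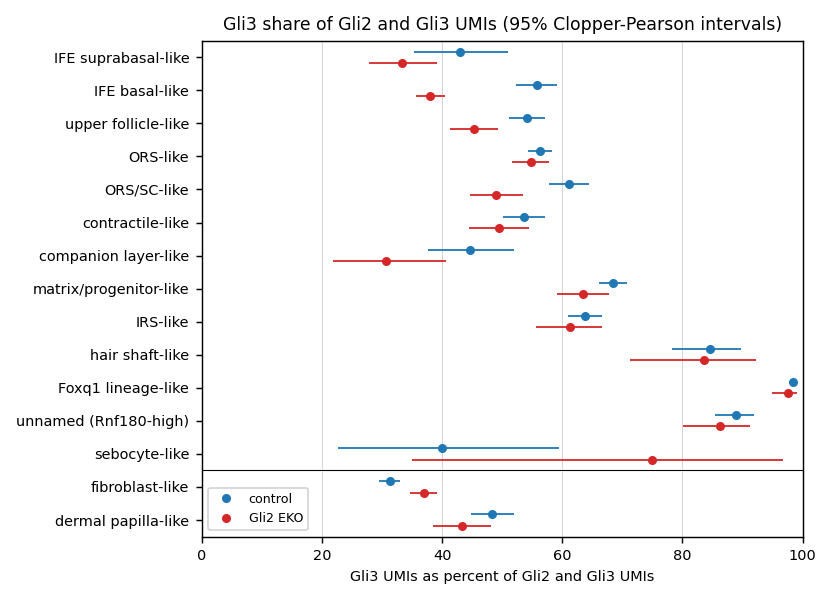
Gli3 UMIs as a percentage of Gli2 and Gli3 UMIs by class, in control (blue) and Gli2_EKO (red) cells, with 95% Clopper-Pearson intervals. The share is near 98% in Foxq1 lineage-like cells and 31.3% in control fibroblast-like cells, and the libraries lie farthest apart, with intervals that do not overlap, in IFE basal-like cells (55.7% and 38.0%).

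Whether the same cells carry both factors was read after thinning to 5000 UMIs. Both occurred in 16.5% (15.2 to 17.9) of the 2996 control cells and in 12.9% (11.5 to 14.4) of the 2103 Gli2_EKO cells among keratinocytes, against 13.8% and 9.79% if the UMIs of each were spread over cells independently. Within classes, the value under independence mostly lay inside the interval of the observed share, though an excess remained in several. Upper follicle-like control cells had 15.1% (11.8 to 19.0) against 12.4%, and IFE basal-like control cells 9.38% (6.62 to 12.8) against 7.17%. Hair shaft-like control cells had 11.9% (5.30 to 22.2) against 7.80%, while matrix/progenitor-like control cells lay the other way, with 13.7% against 14.7%. In control ORS-like cells, both were found in 18.8% (15.7 to 22.3) against 19.6% under independence, in ORS/SC-like cells in 29.7% (24.0 to 35.9) against 29.0%, and in contractile-like cells in 34.4% (27.1 to 42.3) against 30.2%. IRS-like control cells were an exception, with 26.1% (21.0 to 31.7) against 20.01%, a value below the interval. Their Gli2_EKO counterparts had 14.0% (7.66 to 22.7) against 8.32%. The other exception was the IFE suprabasal-like class of Gli2_EKO, where 5 of 296 cells, 1.69% (0.551 to 3.90), held both against 0.401%. In Foxq1 lineage-like control cells, 87.3% of cells had Gli3 alone and none had Gli2 alone. A cell without a UMI at this depth may still express the gene.

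Smo varied less between classes than Gli3. In control cells it was highest in the unnamed cluster, at 208 CPM (157 to 271), and in Foxq1 lineage-like cells, at 195 CPM (166 to 226), and high in contractile-like cells, at 167 CPM (150 to 186). IRS-like, ORS/SC-like, ORS-like and matrix/progenitor-like cells lay together between 121 and 126 CPM with overlapping intervals, and IFE basal-like and upper follicle-like cells just below at 98.5 and 93.1 CPM. Hair shaft-like cells had 75.5 CPM, companion layer-like cells 70.9 CPM, IFE suprabasal-like cells 43.6 CPM (38.1 to 49.8) and sebocyte-like cells 15.1 CPM (8.46 to 24.9). The signal transducer was thus lowest in the class that was also lowest in Gli2 and Gli3. Within classes the libraries differed little: the interval of the log2 ratio was off 0 in 1 of 12 keratinocyte classes, the IRS-like cells with 126 and 92.0 CPM (−0.46, −0.74 to −0.18). In that class, 20.5% of all genes had an interval below 0. In IFE basal-like cells, Smo stood at 98.5 and 99.3 CPM, a log2 ratio of 0.01 (−0.14 to 0.16).

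**Figure D4:**
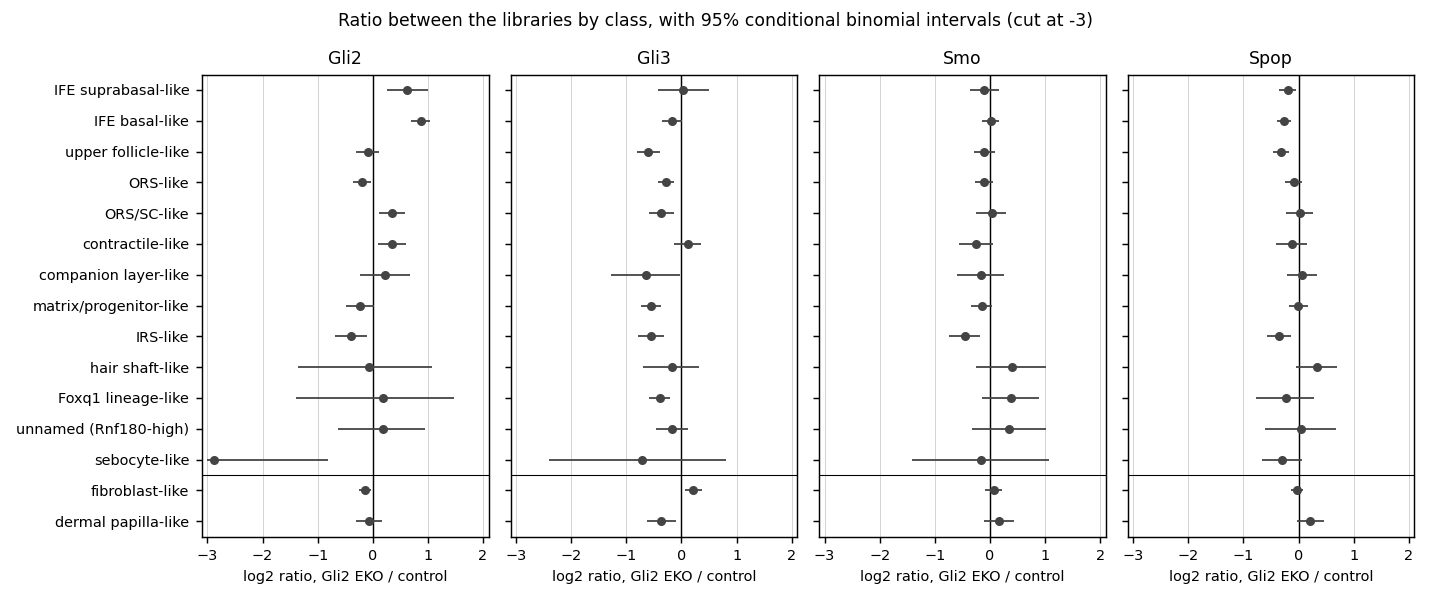
Log2 ratio of CPM, Gli2_EKO over control, of Gli2, Gli3, Smo and Spop in each keratinocyte class and in fibroblast-like and dermal papilla-like cells, with 95% conditional binomial intervals, which are cut at −3. Gli2 lies above 0 in IFE basal-like (0.87) and IFE suprabasal-like cells (0.62), Gli3 at or below 0 in nearly all keratinocyte classes, and Smo near 0 in most.

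Sufu, the cytoplasmic inhibitor of both factors, was most abundant in follicle cells on the way to the hair and its sheath. In control cells it stood at 54.7 CPM (40.6 to 72.2) in hair shaft-like, 39.3 CPM (33.2 to 46.3) in IRS-like, 37.5 CPM (25.6 to 52.9) in Foxq1 lineage-like and 28.0 CPM (24.2 to 32.1) in matrix/progenitor-like cells. It was lowest in the epidermis between follicles, with 12.9 CPM (10.3 to 16.1) in IFE basal-like and 11.99 CPM (9.17 to 15.4) in IFE suprabasal-like cells. The unnamed cluster had 79.4 CPM from 21 UMIs, with an interval of 49.2 to 121. Between the libraries, the interval was off 0 in hair shaft-like cells, from 50 UMIs in control and 6 in Gli2_EKO (54.7 and 18.0 CPM, −1.601, −3.11 to −0.38), and barely so in matrix/progenitor-like cells (28.0 and 20.7 CPM, −0.44, −0.87 to −0.02). In those classes, 6.36% and 19.2% of all genes had an interval below 0.

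Kif7 gave the fewest UMIs, 344 in control and 178 in Gli2_EKO keratinocytes, and can be ranked only roughly. In control cells it was at 13.4 CPM (9.90 to 17.7) in IRS-like, 11.96 CPM (9.57 to 14.8) in matrix/progenitor-like and 9.57 CPM (7.59 to 11.9) in ORS-like cells, against 2.23 CPM (1.22 to 3.75) in IFE basal-like and 0.983 CPM (0.319 to 2.29) in IFE suprabasal-like cells. These 3 follicle classes thus stood above the interfollicular ones beyond counting error. IFE basal-like cells of the Gli2_EKO library had 3.91 CPM (2.71 to 5.46) and IFE suprabasal-like cells 2.42 CPM (1.38 to 3.93). No class had a log2 ratio with an interval off 0 among the keratinocytes, but the intervals were wide, such as −0.13 to 1.82 in IFE basal-like cells. In the annotation Kif7 overlaps Ticrr, a gene on the opposite strand, and separating the reads of both rests on the strand.

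Spop was the most even of the 6 genes and the one found at like levels outside the epithelium. The control keratinocyte classes ran from 129 CPM in IFE suprabasal-like to 268 CPM in Foxq1 lineage-like cells, a range of 2.09-fold, against 167-fold for Gli3. Foxq1 lineage-like (235 to 305), unnamed (265 CPM, 206 to 335) and hair shaft-like cells (215 CPM, 186 to 247) were at the upper end, and ORS-like (130 CPM), matrix/progenitor-like (134 CPM) and IFE basal-like cells (135 CPM) at the lower. Immune-like cells, which hardly hold Gli2 or Gli3, had 167 CPM (142 to 195) in control and 118 CPM (91.6 to 151) in Gli2_EKO, a log2 ratio of −0.49 (−0.93 to −0.07). In Gli2_EKO cells the interval lay below 0 in IRS-like (192 and 150 CPM, −0.36), upper follicle-like (179 and 144 CPM, −0.31), IFE basal-like (135 and 112 CPM, −0.26) and IFE suprabasal-like cells (129 and 112 CPM, −0.20). The shares of all genes with an interval below 0 were 20.5%, 23.7%, 18.1% and 19.5% in those classes.

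**Figure D5:**
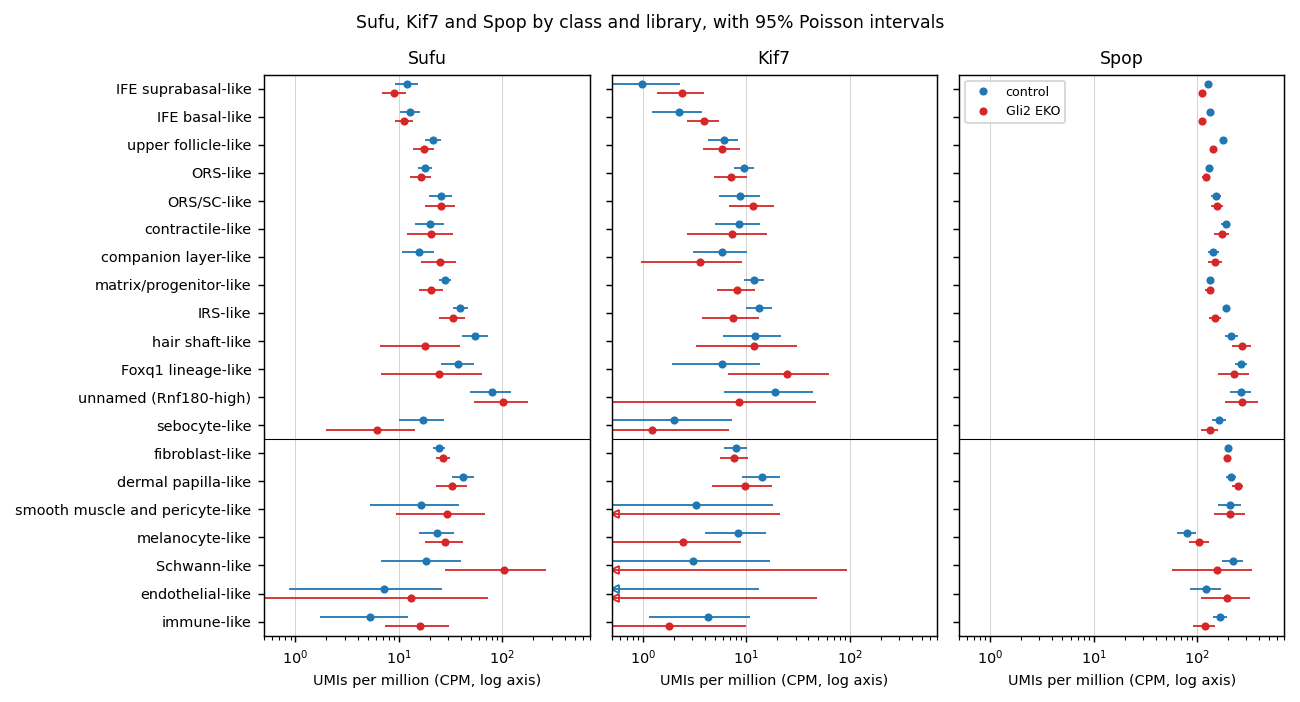
Level of Sufu, Kif7 and Spop in CPM on a log axis in each class of the control (blue) and Gli2_EKO (red) library, with 95% Poisson intervals; open triangles mark classes with no UMI. Spop stays between 79.6 and 274 CPM in all classes and both libraries, while Kif7 is below 4 CPM in both interfollicular classes.

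In control dermal papilla-like and fibroblast-like cells, each taken as a class, Gli2 was higher than in any named keratinocyte class of the control library. Dermal papilla-like cells, which receive the follicle's Shh and express Corin and Rspo3, had 241 CPM (217 to 266) in control and 229 CPM (201 to 260) in Gli2_EKO. Fibroblast-like cells had 221 CPM (211 to 232) and 200 CPM (188 to 212), a log2 ratio of −0.15 (−0.25 to −0.04). Their share of Gli3 among the UMIs of Gli2 and Gli3 was 31.3% (29.5 to 33.0) in control and 36.9% (34.7 to 39.2) in Gli2_EKO, and the control value was lower than in any control keratinocyte class, with an overlapping interval in sebocyte-like cells alone. Gli3 was at 225 CPM (203 to 250) in control dermal papilla-like and 101 CPM (93.9 to 108) in control fibroblast-like cells. Among the 3 fibroblast-like clusters it was uneven, with 146, 80.5 and 63.4 CPM in their control cells.

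Between the libraries, Gli3 in dermal papilla-like cells was 225 and 175 CPM (−0.37, −0.63 to −0.10), and in fibroblast-like cells 101 and 117 CPM (0.22, 0.07 to 0.37). The shares of all genes with an interval below 0 were 8.09% and 16.1%, and above 0 8.55% and 15.5%, in that order. The fibroblast value turned to −0.029 without removal of doublets. Within the 3 fibroblast-like clusters the levels were 146 and 153, 80.5 and 91.9, and 63.4 and 57.2 CPM with overlapping intervals, and the cluster highest in Gli3 made up 329 of 663 control and 297 of 495 Gli2_EKO fibroblast-like cells. Smo stood at 163 and 183 CPM in dermal papilla-like and at 102 and 107 CPM in fibroblast-like cells, Spop at 213 and 248 and at 201 and 196 CPM, and all 4 intervals of the ratio include 0. None of the 6 members differed by more than 1.5-fold over both dermal classes together, where 4.41% of 12313 genes were lower and 2.91% higher. Melanocyte-like cells showed Gli3 without Gli2: 92.2 CPM (75.8 to 111) and 118 CPM (96.1 to 145) of Gli3, against 6.70 CPM (2.89 to 13.2) and 1.22 CPM (0.0309 to 6.80) of Gli2. In immune-like cells, Gli2 had 8.50 CPM in control and no UMI in Gli2_EKO, and Gli3 5.31 and 5.38 CPM.

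Dividing cells were compared with the other cells of their class, since HH signalling is tied to proliferation in the follicle. In control ORS-like cells, the dividing cluster, led by histone and mitosis genes, had 113 CPM (103 to 123) of Gli2 and 147 CPM (136 to 159) of Gli3, and the other cells 130 CPM (119 to 142) and 165 CPM (152 to 178). In Gli2_EKO ORS-like cells, Gli2 stood at 106 CPM (93.6 to 121) in the dividing cluster and 105 CPM (91.3 to 120) in the others, and Gli3 at 134 CPM (119 to 149) and 121 CPM (107 to 138), all overlapping. In control IFE basal-like cells the dividing cluster had 46.6 CPM (38.0 to 56.6) of Gli2 against 68.6 CPM (60.8 to 77.1) in the others, and in Gli2_EKO 79.6 CPM (70.1 to 90.0) against 129 CPM (120 to 139). Gli2 was thus lower in dividing than in other basal cells in both libraries. Gli3 stood at 79.0 and 75.4 CPM in control, with overlapping intervals. In Gli2_EKO it stood at 58.8 CPM (50.7 to 67.9) in dividing and 73.6 CPM (66.6 to 81.1) in other cells, and these intervals overlap only at their ends. Smo, at 96.9 and 99.4 CPM in control, had overlapping intervals. An overlap of intervals does not show that levels are equal. The clusters were taken as dividing after their leading genes were seen.

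Of 45 other genes of the pathway, 43 had at least 50 UMIs over keratinocytes, of which 6 were more than 1.5-fold lower and 1 higher in Gli2_EKO, with a median log2 ratio of −0.27. Of all 15620 genes tested, 9.8% were 1.5-fold lower and 4.22% higher, with a median of −0.14. The lower ones include the receptor and target Ptch1 (177 and 116 CPM, −0.61), Hhip, a decoy receptor (3.82 and 1.45 CPM, −1.40), and the target Gli1 (22.1 and 12.3 CPM, −0.84). The Hhip value rests on 176 UMIs in control and 48 in Gli2_EKO keratinocytes, with an interval of −1.89 to −0.93. Scube2, which helps release the ligand and is itself an upper follicle marker here, had −0.72. The kinesin Kif27 had −0.77 (−1.47 to −0.10), from only 64 UMIs in control and 27 in Gli2_EKO. Gas1, a co-receptor, was higher, with 124 and 201 CPM and a log2 ratio of 0.69. With classes weighted to control, Gas1 gave 0.32, Ptch1 −0.44, Gli1 −0.54 and Hhip −1.16, and the median of the list −0.12. In dermal cells Hhip alone passed 1.5-fold, with 260 and 158 CPM (−0.71), while Ptch1 had 487 and 499 CPM and Gli1 55.6 and 64.4 CPM. Hhip was thus far higher in dermal cells than in keratinocytes, and the part of dermal RNA in its keratinocyte values was not tested.

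The genes whose levels over 17 keratinocyte and dermal classes were most like those of each member in the control library are given with Pearson's r on log2 CPM with 10 added, as a description only, since all points share a library. For Gli2 these were Macroh2a2 (0.91), Sertad4 (0.90) and Plekhh2 (0.89), with 0.82, 0.81 and 0.88 over the same classes of the Gli2_EKO library. For Gli3 they were Ip6k2 (0.91), Ctdspl (0.90) and Smarcad1 (0.89), with 0.48, 0.83 and 0.58. Ctdspl was also among those for Smo (0.89, and 0.84 in Gli2_EKO), after 1110051M20Rik (0.94 and 0.85) and Dph6 (0.92 and 0.52). For Kif7 they were the ciliary gene Intu (0.90 and 0.87), Map3k7 (0.88 and 0.67) and Polr3f (0.87 and 0.69). For Sufu, the leading genes Gpatch1, Smad6 and Pus3 had 0.93, 0.91 and 0.88 in control but 0.13, 0.33 and 0.16 in Gli2_EKO, and for Spop, Timm29, Osbp and Gm43462 had 0.83, 0.82 and 0.81 against 0.05, 0.59 and 0.15. Among the members themselves, Smo was alike with Gli3 (0.87 and 0.89) and with Gli2 (0.75 and 0.75), and Gli2 with Gli3 less so (0.48 and 0.46).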

How the data were processed

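The authors aligned 10x Genomics 3' libraries with Cell Ranger 9.0.1 to GRCm39 with GENCODE annotation and deposited filtered matrices of raw UMI counts, without normalization. Whether introns were counted was not given in the sources used here. Cells were kept with 1000 to 8000 genes and under 15% mitochondrial UMIs, and the 8% with the highest Scrublet scores (scanpy 1.11.5, expected rate 0.06) were removed per library; its automatic threshold marked 261 control and 5 Gli2_EKO cells, and the study used another doublet caller. Clustering followed the study in Seurat 5.3.0 (2000 variable genes, 20 components, resolution 0.5), with the Harmony algorithm rewritten. Clusters in which the markers of a type other than keratinocytes were detected in over 0.4 of cells on average were set aside as dermal, and 1 mixed keratinocyte cluster was split at resolution 0.3. Classes were assigned by the best mean of centred log2(CPM + 10) over their markers, with a score of at least 1, a lead of 0.25, 3 markers in 10% of cells and no more leading markers of another class. ORS clusters scoring over 2 for the stem cell list were called ORS/SC-like. The clusters called ORS-like also scored best for that list, at 1.60 and 1.67, against 2.83 for the ORS/SC-like cluster. These limits were chosen after scores were seen, and members and lists with earlier results of these data known. CPM carry exact Poisson, shares Clopper-Pearson and ratios conditional binomial intervals at 95%; duplicates of molecules are removed by UMIs, and the intervals cover counting error only. Thinning used 2000 or 5000 UMIs, which left out 5 and 13 control and Gli2_EKO keratinocytes at 2000, and 328 and 199 at 5000. On simulated counts of 14201 genes, 95.2% of ratio intervals held the true value, and 99.5% of 200 genes changed 2-fold were found. These counts were drawn with Poisson error alone from the pooled control keratinocytes, which is the model of the intervals. The simulation therefore checks the calculation and says nothing of variation between cells, mice or libraries. Genes named are the members, pathway genes past 1.5-fold, Ptch1, Gli1 and Hhip, markers, leading genes of clusters, and the 3 most alike genes per member with at least 200 UMIs, over classes with at least 20 cells in both libraries. Coordinates are from GENCODE M39, matched by identifier for 6 of 6 members. Values of 1 gene of the pathway list are not reported here. No test between genotypes was made, with 1 library each.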

Additional observations from a re-analysis of the deposited data

Results flagged for a closer look

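Gli2 had intervals on opposite sides of 0 in different classes, a difference between classes that was not tested. It was higher in the Gli2_EKO library in IFE basal-like (log2 ratio 0.87), IFE suprabasal-like (0.62), contractile-like (0.35) and ORS/SC-like cells (0.35), and lower in IRS-like (−0.39), ORS-like (−0.19) and fibroblast-like cells (−0.15). Gli3 was lower in Foxq1 lineage-like (−0.39), IRS-like (−0.55), ORS-like (−0.28), ORS/SC-like (−0.36), companion layer-like (−0.64), matrix/progenitor-like (−0.55), upper follicle-like (−0.60) and dermal papilla-like cells (−0.37), and higher in fibroblast-like cells (0.22), which was not tested either. The comparison rests on 1 library per genotype, and only classes with at least 50 UMIs of the gene were considered.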

How the results depend on the processing

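No paired analysis was possible because each genotype has 1 library. Over keratinocytes, no log2 ratio of a member with an interval off 0 changed direction under the 7 alternatives tried. Leaving doublets in, the automatic doublet threshold and the total without the 50 most abundant genes moved none of the 6 beyond its interval. Scaling by the median ratio of genes with at least 200 UMIs, which lay at −0.13, gave 0.16 for Gli2, −0.75 for Gli3, −0.11 for Smo and −0.11 for Spop. Weighting each cell equally gave 0.10 for Gli2 and −0.70 for Gli3. Weighting classes to control gave −0.36 for Gli3, −0.10 for Smo, −0.26 for Sufu, −0.18 for Kif7 and −0.15 for Spop. Without the Foxq1 lineage-like and the unnamed cluster, a choice made after seeing the data, Gli3 gave −0.65. The share of all genes 1.5-fold higher was 2.78% at a minimum of 200 UMIs. Within classes, 657 of 668 ratios stayed in their interval, 9 moved out of it, and 2 reversed. A reversal was counted only where the interval of the main ratio lay off 0. A ratio whose interval includes 0 could therefore change sign and still count as within it. The 2 reversals were Gli2 in IRS-like cells, to 0.044 with equal weight per cell, and Gli3 in fibroblast-like cells, to −0.029 without doublet removal. Their cause was not tested. Of the moved, Gli2 in ORS/SC-like cells gave 0.02 at resolution 0.3, where that class took in most other ORS-like cells. Leaving out, in each library, the cell with the most UMIs of the gene, a choice made after seeing the data, left all 24 class values of Gli2 and Gli3 within their intervals. Among these, Gli3 in IFE suprabasal-like cells went from 0.03 to −0.35, and Gli2 in Foxq1 lineage-like cells from 0.18 to −0.05. Schwann-like cells were not found without integration. Shares of cells with a UMI depend on depth: all 12 shares over keratinocytes were higher at 5000 UMIs and without thinning. Kif7 and Sufu in small classes are limited by their UMIs.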
